A study of Mus musculus with 3 samples.

Results

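The CXC chemokines described here are 10 mouse genes, Cxcl1, Cxcl2, Cxcl3, Cxcl5, Cxcl9, Cxcl10, Cxcl11, Cxcl12, Cxcl14 and Cxcl16, taken by name from the 55536 annotated genes of the tables. RNA of the nuclear fraction, which the labels also call nucleoplasmic, was sequenced as total RNA without ribosomal RNA from bone-marrow-derived macrophages of C57BL/6J mice. All 3 libraries belong to 1 group: cells that received lipid A, the TLR4-binding part of bacterial lipopolysaccharide, at 100 ng/ml for 12 h, were kept without it for 12 h, and received 100 ng/ml again for 15 min. Sex and age were not recorded, no untreated or singly treated library is analysed here, and all libraries carry 1 donor identifier, so the spread between them may be technical. The libraries differed in 1 labelled respect, the RNA input, which was 500 ng for replicate 2 and 1 µg for replicates 1 and 3.

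CXC chemokines are small secreted proteins with an amino-terminal pair of cysteines separated by a single residue, and they guide leukocytes through G protein-coupled receptors. Members with the residues glutamate, leucine and arginine (ELR) just before the first cysteine bind CXCR2 and draw neutrophils; in macrophages their genes are classical early targets of NF-kappaB after TLR4 activation. Cxcl9, Cxcl10 and Cxcl11 are ligands of CXCR3 on T and NK cells and are induced through interferons and IRF factors. Cxcl12 (the ligand of CXCR4) and Cxcl14 are mainly products of stromal and epithelial cells, and Cxcl16 is a membrane-bound ligand of CXCR6 that metalloproteases release.

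The codons around the first cysteine show which members carry the ELR residues, and they are given because this feature divides the family. Each 18-base stretch comes from GENCODE M21 (GRCm38) coding sequences and runs through the cysteine, the single residue and the second cysteine, with the 3 codons before the first cysteine in capitals.
Cxcl1: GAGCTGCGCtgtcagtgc
Cxcl2: GAACTGCGCtgtcaatgc
Cxcl3: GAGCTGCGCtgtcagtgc
Cxcl5: GAGCTGCGTtgtgtttgc
Cxcl10: ACGGTCCGCtgcaactgc
Cxcl16: GCTGGAAGTtgttcttgt
The first 4 encode ELR, and the codons of Cxcl10, Cxcl16 and the other members do not. The stretch of Cxcl2 lies at chr5:90904133-90904150 on the plus strand and that of Cxcl10 at chr5:92348181-92348198 on the minus strand, each in exon 2. Cxcl2 and Cxcl3 shared 269 of 300 coding bases (89.7%). In the expected counts, the SD that the quantification itself gives for read placement was 0, 0 and 0.03 counts for each gene in replicates 1, 2 and 3. Few of these counts were therefore in doubt between the genes.

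Upstream sequence is shown for the 3 ELR genes that RefSeq promoters cover and for Cxcl10, the member with the highest level. RefSeq windows of 250 bases before the transcript start (GRCm38.p6) were found for 7 of the 10 genes. The ELR stretches run from position -160 to -31 relative to that start, with the 11 bases that all 3 share in capitals.
Cxcl1: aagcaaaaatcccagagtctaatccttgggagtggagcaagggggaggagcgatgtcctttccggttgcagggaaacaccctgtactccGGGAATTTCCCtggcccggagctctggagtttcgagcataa
Cxcl2: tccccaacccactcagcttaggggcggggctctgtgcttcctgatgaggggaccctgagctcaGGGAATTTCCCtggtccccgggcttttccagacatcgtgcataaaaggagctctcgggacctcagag
Cxcl3: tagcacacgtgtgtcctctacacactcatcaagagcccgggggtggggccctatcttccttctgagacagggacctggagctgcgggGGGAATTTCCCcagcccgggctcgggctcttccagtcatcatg
They lie on the plus strand at chr5:90891085-90891214, chr5:90903739-90903868 and chr5:90785941-90786070 for Cxcl1, Cxcl2 and Cxcl3. The run GGGAATTTCCC, searched on both strands, begins at -71 in Cxcl1, at -97 in Cxcl2 and at -73 in Cxcl3, and was found in 14 of 32851 promoter windows (0.0426%). The run was picked as the longest that these 3 windows share, and they are among the 14, so its rarity is no test. It overlaps matches to the NF-kappaB consensus, which was found in 7.25% of windows and in those of Cxcl1, Cxcl2, Cxcl3 and Cxcl10.

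The Cxcl10 window lies on the minus strand at chr5:92348890-92349139, with a pair of GAAA repeats and the NF-kappaB consensus matches in capitals.
Cxcl10: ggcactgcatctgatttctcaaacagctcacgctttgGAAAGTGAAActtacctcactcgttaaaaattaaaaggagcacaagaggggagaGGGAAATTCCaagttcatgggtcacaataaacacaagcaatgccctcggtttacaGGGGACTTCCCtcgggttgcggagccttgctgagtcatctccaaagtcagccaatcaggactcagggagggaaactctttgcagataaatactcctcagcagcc
The repeat pair GAAANNGAAA, the core of the element that interferon-activated factors recognise, was searched on both strands and lies from -213 to -204; it was found in 978 windows (2.98%), among the members also in Cxcl14. Neither motif was in the windows of Cxcl9 or Cxcl12. A match describes letters in the window and was not tested for binding.

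Among the 10 members, Cxcl10 had the highest level in these nuclei, followed by Cxcl16 and Cxcl2, while Cxcl3, Cxcl5, Cxcl12 and Cxcl14 were at or near 0. Levels are given as TPM, which is per transcript length and scaled to a fixed sum in each library, and a TPM of 1 or more in all 3 libraries counted as detection. By that measure 4 of 10 members were detected, Cxcl10, Cxcl16, Cxcl2 and Cxcl11, a share of 40%, against 42.8% of the 22028 protein-coding genes. Cxcl11 is not classed as protein coding, so it is among the 10 but not among the 22028. The members together held 0.0490%, 0.0394% and 0.0654% of the 23826101, 19312032 and 21730342 expected counts of replicates 1, 2 and 3. With counts of at least 10 in all libraries in place of TPM, 6 members passed, Cxcl1 and Cxcl9 being added.

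**Figure D1:**
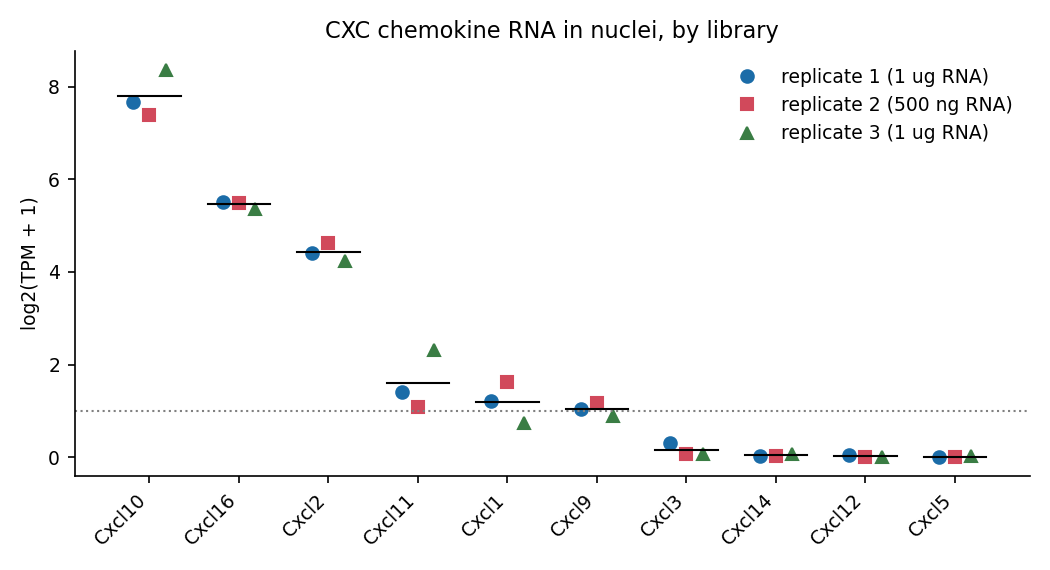
Levels of the 10 CXC chemokine genes as log2(TPM + 1) on the y axis, with 1 point per library and a black line at the mean of the 3 libraries; the dotted line marks a TPM of 1. Cxcl10, Cxcl16 and Cxcl2 keep the top 3 places in every library, Cxcl11, Cxcl1 and Cxcl9 lie around the dotted line, and the other 4 genes lie near 0.

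The libraries had the marker RNA of macrophages and little of other cells. All 10 macrophage markers were detected, with summed TPM of 4704, 4132 and 3392 in replicates 1, 2 and 3. None of 8 fibroblast and stromal, 5 epithelial, 5 dendritic, 4 megakaryocyte and 6 T and NK markers was detected, and Ly6g and Elane, which define granulocytes, were at 0. Kdr among 5 endothelial markers and Csf3r among 7 granulocyte markers were the exceptions, at 9.61 ± 6.45 and 54.7 TPM. In bulk RNA, fewer cells of a type and less RNA per cell cannot be told apart.

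Among the interferon-inducible ligands, Cxcl10 had by far the highest level. Cxcl10, on chromosome 5 from 92346638 to 92348889 (mm10), had 201.9, 166.94 and 328 TPM in replicates 1, 2 and 3 and averaged 232 ± 84.7 TPM (SD, n = 3). It ranked 96 among detected protein-coding genes, above 99.0% of them. Replicate 3 was the highest library and replicate 2 the lowest, and the lowest still exceeded every value of every other member. The counts behind these levels were 7009, 4143 and 10424, with an exact 95% Poisson interval of 4018 to 4271 for the lowest. These intervals cover counting error only.

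Cxcl11 and Cxcl9, the other CXCR3 ligands, were low. Cxcl11 (chromosome 5, 92359544 to 92365485) had 1.66, 1.11 and 3.95 TPM, from 88, 45 and 199 counts in replicates 1, 2 and 3. GENCODE classes the gene as a polymorphic pseudogene, the class for genes whose reading frame is disrupted in the reference strain and intact in others. Its transcript Cxcl11-201, which is classed as protein coding, took 92.8 ± 2.59% of the gene's TPM. Cxcl9 (chromosome 5, 92321347 to 92328079) had 1.07, 1.24 and 0.86 TPM from 104, 86 and 74 counts, and the 3 libraries lay close together. Within libraries Cxcl10 exceeded Cxcl9 by 135-fold to 381-fold and Cxcl11 by 83.0-fold to 150-fold in TPM. A second quantification, in kallisto format, gave Cxcl9 155, 218 and 128 estimated counts and Cxcl11 202, 129 and 368. It gave Cxcl10 7404, 5456 and 11326, so the size of these folds depends on the quantification.

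The ELR ligands were represented mainly by Cxcl2. Cxcl2 (chromosome 5, 90903871 to 90905938), which encodes MIP-2, had 20.37, 23.65 and 17.72 TPM in replicates 1, 2 and 3, from 874, 806 and 710 counts, and averaged 20.6 ± 2.97 TPM. Its level exceeded that of 77.3% of detected protein-coding genes. Cxcl1, which encodes KC and lies 10756 bp before Cxcl2, had 1.31, 2.07 and 0.66 TPM from 51, 61 and 29 counts. Cxcl2 exceeded Cxcl1 by 11.4-fold to 26.8-fold within libraries. The promoters of both hold the shared run above, and a link of that run to their levels was not tested.

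Cxcl3 and Cxcl5 were near the limit of these counts. Cxcl3, the closest member to Cxcl2 in coding sequence, had 7, 1 and 3 expected counts in replicates 1, 2 and 3, which is 0.24, 0.05 and 0.05 TPM. Cxcl5, known as LIX, had 0, 0 and 1 counts, and 3 counts, the one-sided limit that a count of 0 allows, would correspond to 0.0548 and 0.0772 TPM in replicates 1 and 2. The upper end of the two-sided exact 95% Poisson interval of a count of 0 is 3.69 counts. The second quantification in kallisto format gave Cxcl5 31.1, 51.5 and 25.7 estimated counts and Cxcl3 27.4, 43.3 and 19.3. The quantifications therefore differ on whether these genes left reads in the libraries, and the tables used here do not settle which placement of the reads is right.

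Of the members outside these groups, Cxcl16 alone was detected, at an even level. Cxcl16 (chromosome 11, 70453983 to 70459984) had 44.88, 44.25 and 40.02 TPM in replicates 1, 2 and 3 and averaged 43.1 ± 2.64 TPM, higher than 90.7% of detected protein-coding genes. Cxcl12 had 4, 0 and 0 counts and Cxcl14 had 1, 1 and 2 counts. The stromal markers, whose cells are the usual source of Cxcl12, summed to 0.58, 0.35 and 0.14 TPM.

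The upper order of the family was clear of its spread and the lower order was not. Within libraries, Cxcl10 exceeded Cxcl16 by 2.35 ± 0.58 on the log2(TPM + 1) scale (SD, n = 3) and Cxcl16 exceeded Cxcl2 by 1.04 ± 0.14. Cxcl2 exceeded Cxcl11 by 2.82 ± 0.83, and Cxcl9 exceeded Cxcl3 by 0.89 ± 0.18. Each of these differences had the same direction in 3 of 3 libraries. An exact two-sided sign-flip test over 3 libraries cannot give less than p = 0.25. Neighbours in the rest of the order, Cxcl11 and Cxcl1, Cxcl1 and Cxcl9, Cxcl3 and Cxcl14, Cxcl14 and Cxcl12, and Cxcl12 and Cxcl5, did not differ beyond their spread.

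The sums of the role groups rested on 1 gene each. The interferon-inducible ligands summed to 236 ± 86.0 TPM, the ELR ligands to 22.0 ± 3.66 TPM and the other members to 43.1 ± 2.64 TPM (SD, n = 3). The median log2(TPM + 1) of the ELR ligands minus that of the interferon-inducible ligands was -0.96 ± 0.84, and the ELR median was the higher in 0 of 3 libraries. That direction depended on Cxcl3 and Cxcl5: over the members that averaged 1 TPM or more, the ELR median was the higher by 1.18 ± 0.91.

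All but 3 of the members lie in 2 clusters on chromosome 5, and neighbours within a cluster had very different levels. The ELR cluster spans 146.579 kb and also holds Pf4, the platelet factor 4 gene, which had 33.31, 29.08 and 17.69 TPM in replicates 1, 2 and 3, more than any ELR member on average. Ppbp, the platelet basic protein gene beside it, had 0.16, 0.36 and 0.10 TPM, and Cxcl15 was at 0. Megakaryocyte markers summed to between 0.33 and 0.86 TPM. The interferon-inducible cluster spans 44.139 kb. Art3, on the opposite strand, runs across both Cxcl10 and Cxcl11 and had 124.2, 56.03 and 181.04 counts, more in each library than Cxcl11 except in replicate 3. The sources do not state whether reads were counted by strand. Reads of Art3 therefore cannot be told apart with certainty from those of Cxcl10 or Cxcl11. Cxcl10 had far more counts than Art3 in every library (7009, 4143 and 10424). Zmynd15, on the opposite strand, overlaps Cxcl16 over 552 bp and had 5.30 ± 1.24 TPM.

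**Figure D2:**
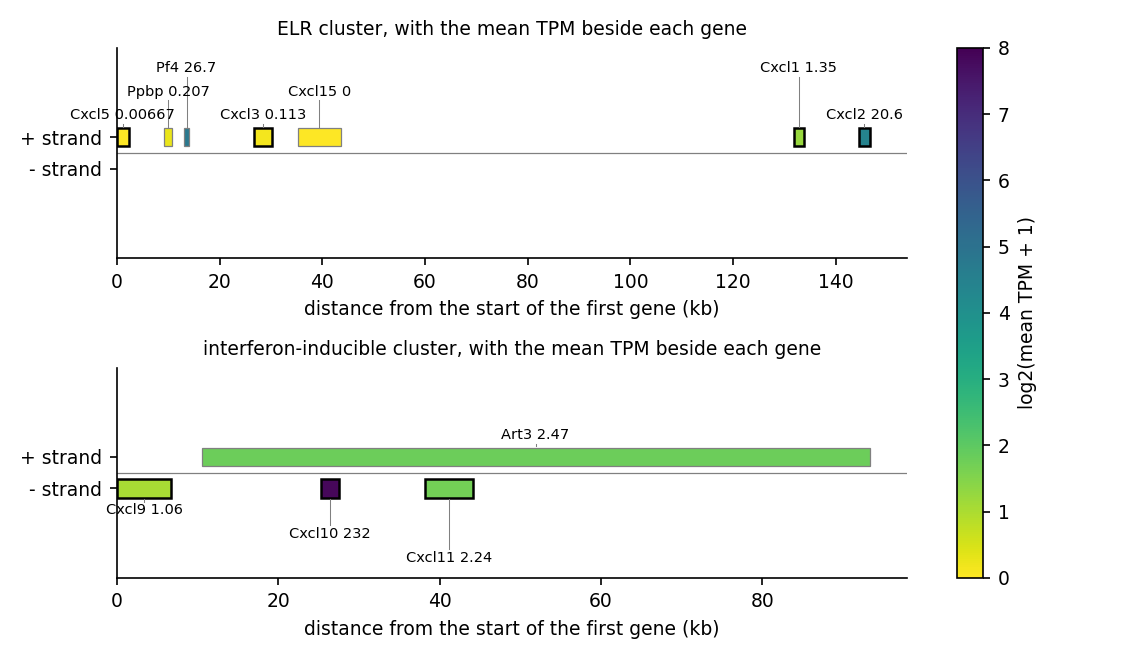
Maps of the 2 chromosome 5 clusters. Distance from the start of the first gene in kb is on the x axis and strand on the y axis. Boxes are protein-coding or polymorphic pseudogene genes, and black edges mark those of the 10 members that lie in the clusters. Fill and printed value give the mean TPM of 3 libraries. Cxcl2 and Pf4 stand out in the ELR cluster and Cxcl10 in the interferon-inducible cluster, while their neighbours lie below 3 TPM.

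Cxcl2 and Cxcl10 differed in how much of their nuclear RNA was assigned to unspliced transcripts. The annotation holds, for each, a single-exon transcript that spans all 3 introns of the main coding transcript and is classed as retained intron. For Cxcl2 this transcript (Cxcl2-203) had 8.85, 12.07 and 7.45 TPM in replicates 1, 2 and 3, and the spliced Cxcl2-201 had 7.02, 8.20 and 7.83. The unspliced form was the higher in replicates 1 and 2 and the lower in replicate 3. For Cxcl10 the unspliced transcript (Cxcl10-204) had 21.87, 16.73 and 38.80 TPM, and the spliced Cxcl10-201 had 165.37, 142.39 and 265.05. The spliced form was far the higher in every library.

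The ratio of unspliced to spliced transcript was 1.23 ± 0.26 for Cxcl2 and 0.132 ± 0.014 for Cxcl10 (SD, n = 3). The ratio of Cxcl2 exceeded that of Cxcl10 by 9.53-fold, 12.5-fold and 6.50-fold in replicates 1, 2 and 3, or 3.20 ± 0.48 on the log2 scale. In kallisto-format values the difference was 3.11 ± 0.36. Cxcl10 exceeded Cxcl2 by 24.9 ± 8.33-fold in spliced RNA and by 3.02 ± 1.97-fold in unspliced RNA. In replicate 2, where the unspliced forms were closest, Cxcl10-204 had 1.39 times the TPM of Cxcl2-203. Exon reads fit both forms, so the split is an estimate of the authors' tool. Its own SD of the count in replicate 1 was 15.9 of 596 for Cxcl2-203 and 22.4 of 1606 for Cxcl10-204. If reads were not counted by strand, RNA of Art3, which runs across Cxcl10, could also be assigned to Cxcl10-204.

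**Figure D3:**
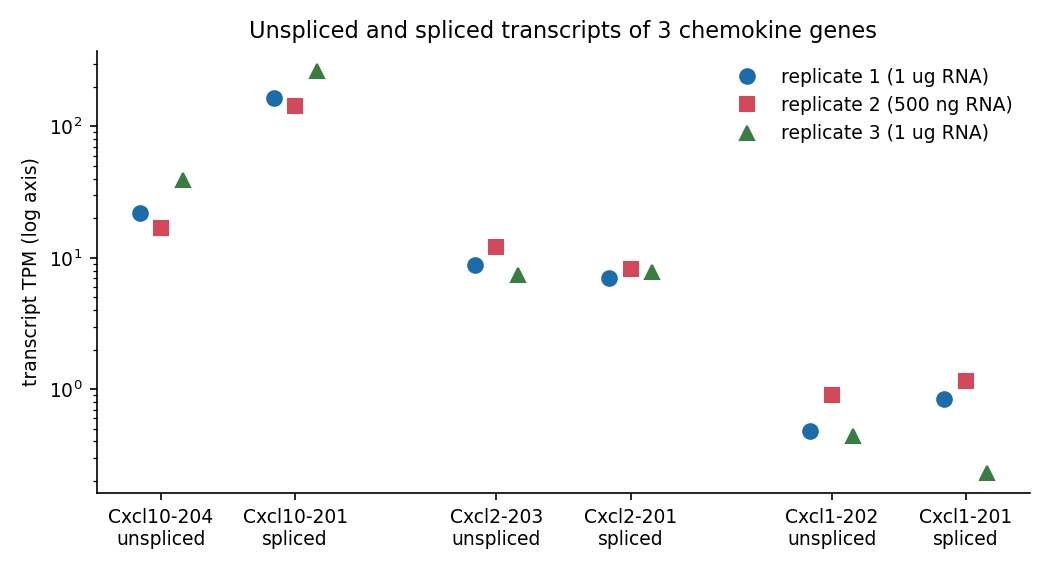
Transcript TPM (log axis) of the unspliced single-exon transcript and of the spliced coding transcript of Cxcl10, Cxcl2 and Cxcl1, with 1 point per library. The unspliced points of Cxcl10 (21.87, 16.73 and 38.80 TPM) lie well under its spliced points, whereas those of Cxcl2 (8.85, 12.07 and 7.45 TPM) lie beside its spliced points.

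Over all annotated retained-intron transcripts the same contrast held. They took 60.1 ± 5.33% of Cxcl2 TPM, more than in 93.9% of the 5980 detected protein-coding genes that have such a transcript, whose median was 23.95%. They took 16.6 ± 2.12% of Cxcl10 TPM and 11.0 ± 3.54% of Cxcl16 TPM, both under that median; for Cxcl16 the kallisto-format share was 26.95%, under the kallisto-format median of 28.4%. By share of expected counts, which is not per length, Cxcl2 had 69.8% and Cxcl10 23.6%, both above the median of 13.5%. In Cxcl1 the unspliced Cxcl1-202 took 36.4%, 43.96% and 65.7% of TPM in replicates 1, 2 and 3, from 28.7, 38.9 and 23.4 counts. Cxcl9 RNA was assigned in full to the coding transcript, and Cxcl9 has no annotated transcript that spans its introns, so its share cannot be set beside the others. In Cxcl16 a transcript of the nonsense-mediated decay class, Cxcl16-202, took 15.4 ± 2.55% of TPM, against a median of 3.78% in 2958 genes with such a transcript, an excess over the median that was smaller in kallisto-format values, where it took 9.47% against a median of 7.82%.

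**Figure D4:**
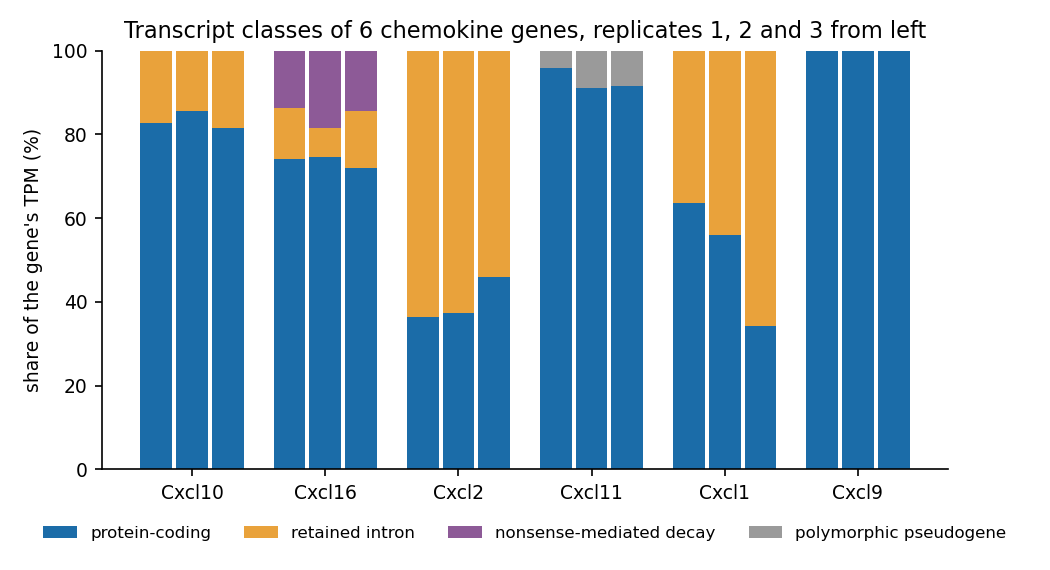
Share of each gene's TPM by GENCODE transcript class, in percent, for the 6 members with at least 10 counts in every library, with 1 stacked bar per library. Retained-intron transcripts take the larger share of Cxcl2 in each library (63.6%, 62.7% and 54.0%) and a small share of Cxcl10 (17.2%, 14.3% and 18.4%).

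The members did not vary together between the libraries. Cxcl10 and Cxcl11 were highest in replicate 3 and lowest in replicate 2, an order shared by 7.57% of the 9434 detected protein-coding genes. In TPM, Cxcl1, Cxcl2 and Cxcl9 had the opposite order, highest in replicate 2 and lowest in replicate 3. Of detected protein-coding genes, 29.8% share that order. For Cxcl9 it depended on the scale. On log2 counts per library size scaled by TMM, Cxcl9 in replicate 2 was not above replicate 1 (difference -0.0050). Cxcl16 followed neither order. The SD of log2(TPM + 1) was 0.50 for Cxcl10 and 0.64 for Cxcl11, larger than in 91.4% and 99.5% of detected protein-coding genes with a mean TPM within 2-fold of theirs. It was 0.20 for Cxcl2 and 0.09 for Cxcl16, larger than in 50.4% and 10.7% of such genes. On log2 counts per library size scaled by TMM, the SD was 1.05 for Cxcl11 and 0.12 for Cxcl2, and Cxcl10 had 0.64.

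**Figure D5:**
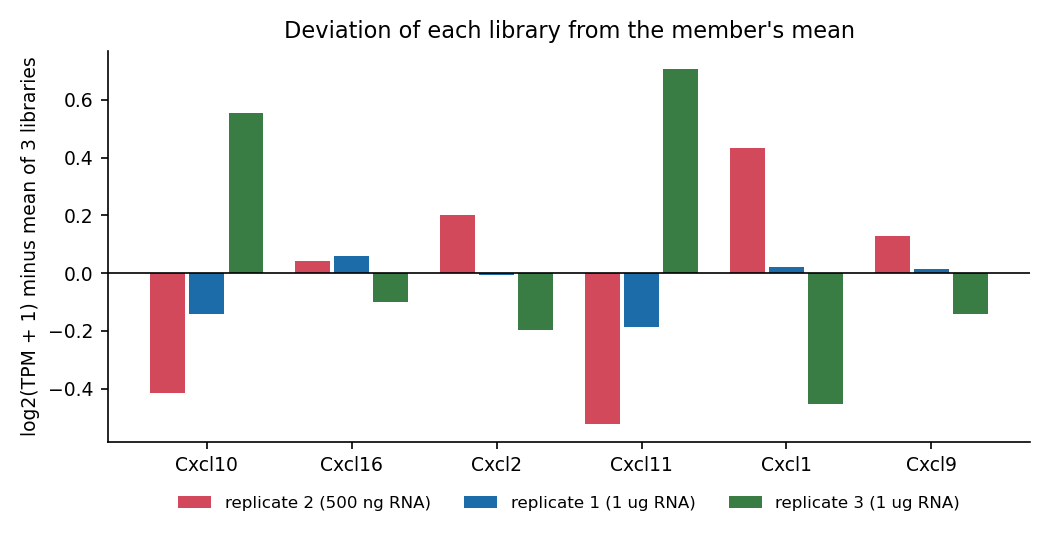
Deviation of each library from the gene's mean over 3 libraries, in log2(TPM + 1) on the y axis, for the 6 members with at least 10 counts in every library. Cxcl10 and Cxcl11 deviate upwards in replicate 3 (by 0.56 and 0.71) and downwards in replicate 2. Cxcl1, Cxcl2 and Cxcl9 deviate the other way, Cxcl9 by no more than 0.14.

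Replicate 2, made from 500 ng RNA, was set against replicates 1 and 3, made from 1 µg, to see whether the members followed the RNA input. Cxcl10 had 166.94 TPM at 500 ng, against 201.9 and 328 TPM at 1 µg, and Cxcl11 had 1.11 TPM at 500 ng, against 1.66 and 3.95 TPM at 1 µg. Both were lower at 500 ng than in either other library, with log2 fold changes of -0.93 ± 0.39 for Cxcl10 and -1.54 ± 0.65 for Cxcl11 (SE). Neither passed the threshold in the edgeR quasi-likelihood test with Benjamini-Hochberg adjustment (adjusted p = 0.77 for each, unadjusted p = 0.056 and 0.057). DESeq2 gave unadjusted p-values of 0.012 and 0.026, and neither passed after adjustment. Cxcl1 had 2.07 TPM at 500 ng, against 1.31 and 0.66 TPM at 1 µg, a log2 fold change of 0.79 ± 0.45. None of the 6 members tested passed, and of all genes 3 of 16254 did (0.0185%), with 1006 at an unadjusted p under 0.05. The 3 genes, named after their values were seen, were Gm37376, Zc3h11a and Gm49342, each at 0 in 1 of the input classes. Without a filter on low counts, edgeR gave more calls, and Cxcl11 was lower at 500 ng with an adjusted p of 0.013, and Cxcl10 had one of 0.10. With 1 library on 1 side, input and library cannot be told apart.

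The listed genes of the interferon and NF-kappaB branches and of mRNA decay were all detected. In the interferon branch 10 of 10 genes were detected, from Irf7, a factor that drives interferon genes, at 386 ± 108 TPM to Ifnb1, which encodes interferon beta, at 2.03 ± 1.28 TPM. Irf7 had 340.51, 308.35 and 508.68 TPM and Ifnb1 had 1.5, 1.09 and 3.49 TPM in replicates 1, 2 and 3. Both had the library order of Cxcl10 and Cxcl11, as did 4 of the 10 genes in all. Of detected protein-coding genes, 7.57% had it, as given above. The order was taken from Cxcl10 and Cxcl11 in these same libraries, and the list was chosen with earlier results known, so these shares are no test. Another 5 of the 10, among them Ifnar1 and Irf8, were highest in replicate 2, where Cxcl10 was lowest. So were 5624 of the 9434 detected protein-coding genes. The part of the listed interferon-branch genes in the spread of Cxcl10 and Cxcl11 was not tested. In the list of NF-kappaB and mRNA decay genes 8 of 8 were detected. The highest was Zfp36, which encodes the mRNA decay factor tristetraprolin, at 111 ± 17.0 TPM. The lowest was Elavl1, which encodes the RNA-binding protein HuR, at 10.3 ± 1.96 TPM. Of these 8 genes, 2 (25%) also had the library order of Cxcl10 and Cxcl11, and 3 were highest in replicate 2. None of these 18 genes passed the test of RNA input.

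Receptors were low, and the proteases that release Cxcl16 were well detected. Of 8 CXC chemokine receptor genes, 3 were detected. Cxcr4, the Cxcl12 receptor, had 1.29, 8.91 and 3.35 TPM in replicates 1, 2 and 3, a wide spread with replicate 2 highest. Cxcr3, the receptor of the interferon-inducible ligands, was the lowest detected at 1.61 ± 0.11 TPM, and Cxcr2, the receptor of the ELR ligands, had 2, 0 and 0 counts. Of 6 genes for proteases that act on these ligands, 3 were detected. Adam17, which can shed membrane proteins including Cxcl16, had 41.5 ± 0.83 TPM, and Mmp12, the lowest detected, had 8.95, 2.99 and 3.19 TPM with replicate 1 apart from the others.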

How the data were processed

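Values are of 3 nuclear RNA libraries. Per the file headers and notes, transcripts of GENCODE M21 (mm10) were quantified from transcriptome alignments; no tool is named there, and the gene and transcript columns are those RSEM writes. The expected counts and TPM values were deposited by the authors per library, as was FPKM. A transcript table with the authors' estimated counts and TPM has the columns kallisto writes and was summed per gene. From these were computed log2(TPM + 1), shares of transcripts, exact 95% Poisson intervals and TPM rescaled over 22015 nuclear-encoded protein-coding genes. Those genes held 19.9% to 22.2% of RSEM-format TPM and 2.92% to 14.7% of kallisto-format TPM, so kallisto-format TPM without rescaling is not comparable between libraries. Rounded expected counts were tested with edgeR 4.0.16 (filterByExpr, TMM, threshold 0.05), with DESeq2 1.42.0 as an alternative, in R 4.3.3; the rest used Python 3.11.15 with scipy 1.17.1, numpy 2.4.6, pandas 2.3.3 and matplotlib 3.10.9. The test was also run on simulated counts with known folds in replicate 2. The outcome is not reported here, and nothing is drawn from it. All 10 members, the highest and lowest detected gene of each list, and overlapping or neighbouring genes are named; an item of the lists is not reported here. Members and lists were chosen with earlier results of these data known. Likeness to other genes was not ranked, since 3 libraries of 1 group give no pattern. The labels number the libraries as biological replicates but name no separate animals.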

Additional observations from a re-analysis of the deposited data

How the results depend on the processing

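The number of detected members was 4, and between 4 and 6 when a replicate was left out; it was 3 at a TPM of at least 2 and by kallisto-format TPM, both without Cxcl11, 6 with rescaled TPM, and 8 with at least 10 kallisto-format estimated counts, a setting chosen after seeing the data, which adds Cxcl3 and Cxcl5 to the 6 that expected counts give. All 10 members kept their place in the order by FPKM and 4 by kallisto-format TPM; 8 kept it without any one replicate, and the top 3 never changed. The ELR median minus the interferon-inducible median was -2.04 as a mean over members, -2.05 with a pseudocount of 0.1 and 1.18, the other direction, over the members that averaged 1 TPM or more; it lay between -1.28 and -0.49 with a replicate left out. The RNA input test called 349 genes without a filter and 25 with DESeq2. For Cxcl9 the log2 difference at 500 ng was 0.13; it was 0.28 without replicate 1 and -0.0050, the other direction, without replicate 3. Without replicate 3 the log2 difference of Cxcl10 was -0.49 and that of Cxcl11 -0.69, so replicate 3 supplied much of both. The unspliced-to-spliced contrast of Cxcl2 and Cxcl10 lay between 2.98 and 3.45 with a replicate left out. The SD of log2 of Cxcl11 was 0.20 by kallisto-format TPM, which was not rescaled, and those of Cxcl2, Cxcl9 and Cxcl16 were 1.09, 0.47 and 1.11. Once the kallisto-format values were rescaled, the SDs of Cxcl11, Cxcl2, Cxcl9 and Cxcl16 were 0.69, 0.16, 0.29 and 0.10. Their main values were 0.64, 0.20, 0.13 and 0.09 in the same order. Beyond this comparison, the cause of the changes in SD was not tested. No paired analysis was possible because there is 1 group.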

Other observations

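Of 5 CXC ligand genes outside the 10, Pf4 was the 1 that was detected, at 26.7 ± 8.08 TPM (SD, n = 3). Cxcl13 and Cxcl15 were at 0 in every library. Cxcl17 had 3, 0 and 5 counts and Ppbp had 5, 8 and 3 counts in replicates 1, 2 and 3.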
